A study of Mus musculus with 4 samples.

Results

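The mitochondrial solute carriers of the Slc25 family were examined in tibialis anterior (TA) muscle, which lies along the shin and lifts the foot, from young and old mice. Members were the genes whose symbol begins with Slc25 and that had a value in every sample, with loci of the same symbol summed. By this rule 34 of 20340 gene labels were members, and 27 of the 34 reached the level needed for a test. RNA was sequenced from C57BL/6 mice aged 20 months (Old 1 and Old 2) and 3 months (Young 1 and Young 2), 2 samples per age, with no treatment and no genetic change given in the labels. The study describes the mice as healthy and their sex as randomly chosen, and neither its methods nor the labels say whether a sample was 1 animal or a pool. The values are FPKM, fragments scaled by transcript length and by the mapped fragments of a sample, and the depth of each sample is unknown.

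The carriers of this family sit mainly in the inner mitochondrial membrane, which is closed to most charged metabolites. Each one exchanges or co-transports a particular group of solutes, such as phosphate, adenine nucleotides, carboxylates, amino acids or cofactors, between the cytosol and the matrix. In muscle they bring in phosphate for ATP synthesis, send ATP out to the contractile apparatus, and carry the malate and aspartate by which electrons from cytosolic NADH reach the respiratory chain. Slc25a4 and Slc25a5, the ADP/ATP carriers, and Slc25a20, the carnitine and acylcarnitine carrier, were not analysed here.

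Of the 27 tested carriers, 9 were lower (33.3%) and 1 was higher (3.70%) in old than in young muscles. Among all genes tested, 7.94% were lower and 5.61% were higher. These calls depended on the processing, with 0 carriers called without scaling of the samples and 1 lower with quantile normalization. Slc25a25, a calcium-regulated ATP-Mg/phosphate carrier, had the largest difference among those past the threshold. Its scaled FPKM was 4.37-fold higher in young than in old muscles. The phosphate carrier Slc25a3, the most abundant member, was 1.83-fold higher in young muscles. The aspartate-glutamate carrier Slc25a12 and the oxoglutarate carrier Slc25a11 were 1.38-fold and 1.49-fold higher in young muscles. Slc25a27, known as UCP4, was the only tested member past the threshold in the other direction, 1.38-fold higher in old muscles.

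Deposited values of the tested carriers were higher in Old 1 than in Old 2 and in Young 2 than in Young 1, by an amount that differed between genes. The log2 ratio of Old 1 to Old 2 before scaling ran from 0.93 for Slc25a46 to 3.44 for Slc25a35. Across the 20605 loci listed in every sample, FPKM summed to 698130 in Old 1 and 739302 in Young 2, but to 226747 in Old 2 and 251294 in Young 1. Each sample was therefore divided by its median ratio to the geometric mean over 7228 genes, which gave factors of 1.46 for Old 1, 0.680 for Old 2, 0.689 for Young 1 and 1.47 for Young 2. Values after this step are called scaled FPKM. At 10 to 30 scaled FPKM, log2 ratios of single genes had a robust SD of 0.06 for Old 1 against Old 2 and 0.07 for Young 1 against Young 2, while pairs of different ages had 0.39 to 0.45. After scaling, the samples of an age were still apart in some genes, and the fast muscle gene Mylpf had 15329 scaled FPKM in Old 1 and 6109 in Old 2. The study describes its 2 sequencing experiments per group as independent, without saying whether they used separate animals or libraries, so the p-values below measure only the spread between these samples, which may be technical. The smallest two-sided p that an exact permutation test can reach in a design of 2 samples per age is 0.33.

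The tissue label was checked against 12 muscle genes, of which 11 had a value. Mylpf, a fast myosin light chain, had 6109 to 15522 scaled FPKM, while Ckm, the muscle creatine kinase, was listed at 0 in every sample, Neb in 2 samples and Ttn in both old samples. Slow-fiber markers were higher in old muscles for 6 of 6 tested genes, with a median log2 fold change of 3.68 and summed scaled FPKM of 679 to 877 in old and 52.2 to 60.5 in young muscles. The locus of the hemoglobin genes Hba-a1 and Hba-a2 had 408 to 415 scaled FPKM in old and 57.3 to 60.3 in young muscles, and Slc4a1, the other erythroid marker with a value, had at most 0.0944 scaled FPKM. The muscle list had 0 of 10 tested genes past the threshold in limma and 1 at an unadjusted p under 0.05. Adipocyte markers had 0 of 5 past it and 1 at an unadjusted p under 0.05, with summed levels of 246 to 306 in old and 266 to 341 in young muscles. Macrophage markers had 1 of 4 lower (sums of 10.5 to 13.1 and 16.8 to 19.7), endothelial markers 1 of 4 lower (38.1 to 42.1 and 46.2 to 51.7), fibroblast markers 2 of 5 lower (111 to 123 and 145 to 158) and Schwann cell markers 2 of 3 lower (30.1 to 30.8 and 44.2 to 46.5). Among the fibroblast markers, Col1a1 and Col1a2 (collagen I chains) were lower in old muscles, with log2 fold changes of -1.96 and -1.54. Dcn and Pdgfra had both old samples above both young samples, with log2 fold changes of 0.30 and 0.16 that did not pass the threshold. No marker of these last 4 lists was higher in old muscles past the threshold. Beside these marker counts, 7.94% of all genes tested were lower and 5.61% were higher. The part of these shifts in the carrier results was not tested, and fewer cells of a type and less RNA per cell cannot be told apart in whole muscle.

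The 9 lower carriers were 33.3% and the 1 higher carrier 3.70% of those tested, called at an adjusted p under 0.05 (limma on log2 of scaled FPKM + 1, Benjamini-Hochberg over 10266 genes). Over all genes tested, 7.94% were lower and 5.61% were higher. Calls were more frequent at high levels, and among genes with a mean of at least 10 scaled FPKM the share called lower was 12%, against 7 of 13 carriers (53.8%). The median log2 fold change of the tested carriers was -0.29, beside -0.01 over all genes tested. A fold change below 0 was found in 25 of 27 carriers, beside 5199 of the 10266 genes tested. For 15 carriers (55.6%) both old samples lay below both young samples, and for 1 carrier both lay above, while 28.4% and 27.8% of all genes tested did so. A difference of at least 1.5-fold on the log2 scale without overlap was met by 4 carriers in the lower direction (14.8%), beside 5.95% of all genes tested.

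The calls rested on scaling and on the number of samples. Without scaling, limma called 0.175% of all genes higher and 0.127% lower in old muscles and 0 carriers in either direction, with 1 carrier at an unadjusted p under 0.05 and standard errors of 0.933 to 1.16 on the log2 scale. As deposited, Slc25a25 alone among the tested carriers kept both old samples below both young samples. Leaving out Old 1 left 2 carriers called lower, leaving out Young 2 left 1, leaving out Old 2 or Young 1 left 0 (8 and 10 carriers at an unadjusted p under 0.05), and none of these fits called a carrier higher. Slc25a25 remained among the calls without Old 1 and without Young 2, and Slc25a30 also without Old 1. Slc25a25 was also the 1 carrier called with quantile normalization.

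**Figure D1:**
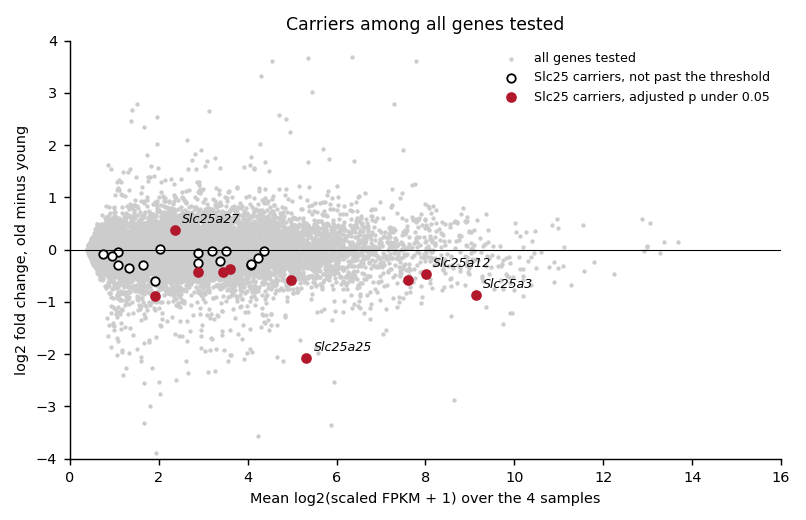
Each grey point is 1 of 10240 genes tested with a log2 fold change within 4, plotted by its mean log2(scaled FPKM + 1) over the 4 samples (x) and its log2 fold change, old minus young (y), and 26 genes beyond the axis are not drawn. Filled circles are the 10 Slc25 carriers past the threshold and open circles the other 17 tested carriers, which lie mostly below 0.

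Among the 34 members, summed levels were dominated by 3. The deposited values ended on chromosome 7 or 8 in text order. Slc25a4, Slc25a5 and Slc25a20 did not have a value in every sample, so their levels are not in these shares. Slc25a3, Slc25a12 and Slc25a11 together held 80.3% and 80.8% of the summed scaled FPKM of all 34 carriers in Old 1 and Old 2, and 81.4% and 81.5% in Young 1 and Young 2. The summed level was 991 and 978 scaled FPKM in the old samples and 1556 and 1629 in the young samples, a 1.62-fold difference. Without Slc25a3 the sums were 568 in each old sample and 825 and 840 in the young samples. The lower sum in old muscles was therefore present with and without the most abundant member.

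**Figure D2:**
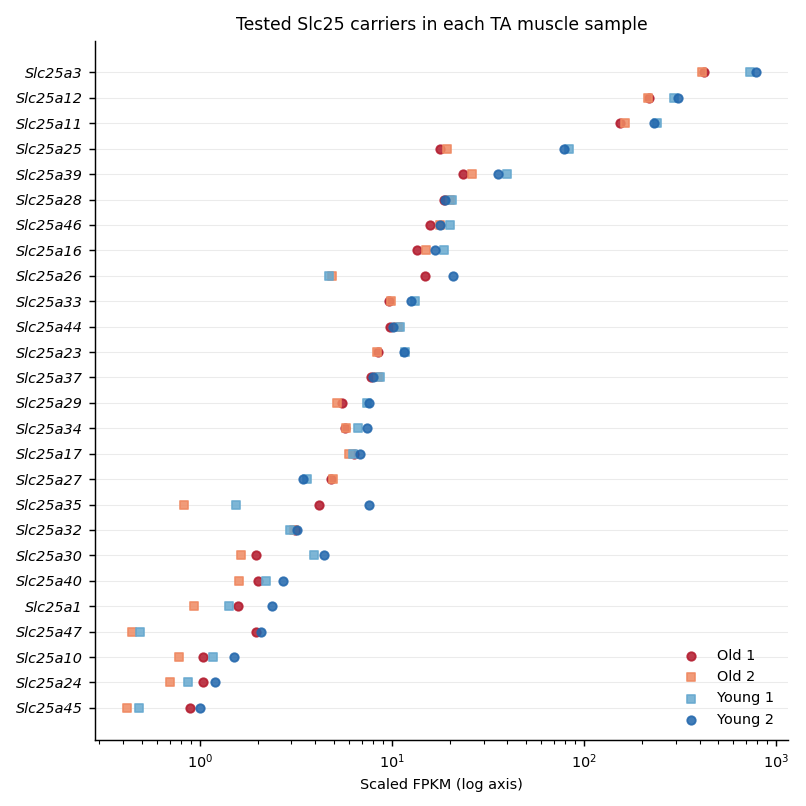
Scaled FPKM (x, log axis) of 26 of the 27 tested Slc25 carriers in each sample, ordered by mean level, with red and orange for old, blue for young, circles for Old 1 and Young 2 and squares for Old 2 and Young 1. In the upper rows the samples of an age lie close together, and for Slc25a26, Slc25a35 and Slc25a47 the circles lie apart from the squares at both ages.

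The 4 calcium-regulated ATP-Mg/phosphate carriers have EF-hand domains and adjust the adenine nucleotide content of the matrix. Of these, 3 were tested and 2 were lower in old muscles, beside 7.94% of all genes tested. The median log2 fold change of the 3 was -0.43. Slc25a25 had deposited values of 25.95 and 13.2 FPKM in Old 1 and Old 2, and of 57.5 and 116 FPKM in Young 1 and Young 2. After scaling these were 17.7, 19.4, 83.4 and 78.8, so both old samples lay far below both young samples. The log2 fold change was -2.07 (standard error, SE, 0.08, adjusted p = 0.0193, limma), with a 95% interval of -2.30 to -1.85. Over the alternatives run, its log2 fold change ranged from -2.13 to -2.01 and its adjusted p (limma) from 0.00143 to 1.00.

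Slc25a23 of the same group had 8.45 and 8.37 scaled FPKM in Old 1 and Old 2, and 11.8 and 11.6 in Young 1 and Young 2. The ages did not overlap, and the log2 fold change was -0.43 (SE 0.05, adjusted p = 0.0294, limma). Slc25a24 had 1.04, 0.703, 0.870 and 1.21 scaled FPKM in the same order, and the ages overlapped. Its log2 fold change of -0.13 (SE 0.22) did not pass the threshold. Slc25a41 was listed at 0 in Old 2 and Young 1 and had under 0.1 FPKM in the other samples, so it was not tested. Relative to Slc25a23, the level of Slc25a25 was 2.1-fold and 2.31-fold in Old 1 and Old 2, and 7.09-fold and 6.79-fold in Young 1 and Young 2. Slc25a25 was the higher of the 2 genes in all samples, by a smaller ratio in the old ones.

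The Slc25a25 locus lies on chromosome 2 from 32413586 to 32456958 (mm10, minus strand), and the coding gene Naif1 lies within it on the other strand. RefSeq (GRCm38.p6, the build also called mm10) lists 3 starts for Slc25a25, and the deposited value does not separate them. The bases before each start are shown because Slc25a25 had the largest difference, and capitals mark TGACGTCA, the site of the cAMP-responsive factor CREB, a motif added after the sequences were seen. The first is the outermost start (chr2:32451471-32451720), the second lies inside the gene (chr2:32424067-32424316), and the third (chr2:32431170-32431401) also lies inside it and was ended before an annotated exon.
Slc25a25 outermost start: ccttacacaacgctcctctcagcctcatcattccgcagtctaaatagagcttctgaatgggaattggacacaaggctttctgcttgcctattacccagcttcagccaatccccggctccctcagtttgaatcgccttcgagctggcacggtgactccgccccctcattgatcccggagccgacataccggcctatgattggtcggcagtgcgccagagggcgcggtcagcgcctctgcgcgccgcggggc
Slc25a25 inner start: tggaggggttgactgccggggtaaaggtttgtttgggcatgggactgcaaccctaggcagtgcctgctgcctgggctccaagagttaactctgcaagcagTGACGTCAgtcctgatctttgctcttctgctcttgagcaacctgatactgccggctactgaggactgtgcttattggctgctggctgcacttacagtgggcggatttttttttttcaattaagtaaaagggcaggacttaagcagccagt
Slc25a25 middle start: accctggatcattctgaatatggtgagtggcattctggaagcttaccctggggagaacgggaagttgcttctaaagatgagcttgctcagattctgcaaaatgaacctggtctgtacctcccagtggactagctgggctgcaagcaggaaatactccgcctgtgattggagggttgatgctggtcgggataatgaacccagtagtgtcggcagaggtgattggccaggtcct
The match ends 142 bases before the inner start. The letters occur within 250 bases before 508 of 32851 starts in the table (1.55%), on either strand, and no other carrier held them. Because the motif was added after the sequences were seen, this share does not measure how unusual the match is.

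Of the nucleotide, phosphate and cofactor carriers, 7 of 13 listed genes had a value. In old muscles 2 of 6 tested were lower, beside 7.94% of all genes tested. The median log2 fold change of the 6 was -0.25. Slc25a3, which brings phosphate into the matrix for ATP synthase and also serves copper delivery, had deposited values of 618 and 279 FPKM in Old 1 and Old 2, and of 504 and 1159 FPKM in Young 1 and Young 2. The deposited value of Old 1 was above that of Young 1, so the ages overlapped before scaling. Scaled, the values were 423, 410, 732 and 789, and the ages did not overlap. The log2 fold change was -0.87 (SE 0.08, adjusted p = 0.0263, limma). Its mean level was above that of 99.1% of the tested genes. The locus lies on chromosome 10 from 91116494 to 91125211 (mm10, minus strand). With quantile normalization the log2 fold change of Slc25a3 was -0.67 and its adjusted p from limma 0.139.

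Slc25a33, a pyrimidine nucleotide carrier, had 9.63 and 9.90 scaled FPKM in Old 1 and Old 2, and 13.2 and 12.6 in Young 1 and Young 2. The log2 fold change was -0.37 (SE 0.05, adjusted p = 0.0410, limma). Slc25a32, the carrier linked to folate and FAD, ranged from 2.94 to 3.21 scaled FPKM over all samples, and Slc25a17, a peroxisomal member of the family, from 5.96 to 6.83. For both genes the ages overlapped. Slc25a31, an ADP/ATP carrier known from the testis, was listed at 0 in every sample.

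The S-adenosylmethionine carrier Slc25a26 separated the samples by another line than age. It had 14.9 scaled FPKM in Old 1 and 20.9 in Young 2, but 4.89 in Old 2 and 4.70 in Young 1. Slc25a35, whose substrate is not settled, showed the same split, with 4.18 and 7.60 scaled FPKM in Old 1 and Young 2 and 0.826 and 1.54 in Old 2 and Young 1. At the locus shared by Mir345 and Slc25a47 the values were 1.97, 2.08, 0.442 and 0.491 in that order. In these 3 carriers the samples of one age differed by more than 1 on the log2 scale, the ages overlapped, and none passed the threshold. The split was not particular to the carriers. Mylpf had 15329 and 15522 scaled FPKM in Old 1 and Young 2, and 6109 and 6683 in Old 2 and Young 1. Over the 10266 genes tested, deviations from the age mean in Old 1 and in Young 2 had a correlation of 0.903. The Slc25a26 locus overlaps the coding gene Lrig1 on the other strand, and that of Slc25a35 overlaps Rangrf. No other coding gene overlaps the locus of Slc25a47. The loci of Slc25a23 and Slc25a46 overlap Crb3 and B930094E09Rik, and their samples of one age differed by at most 0.02 and 0.16 on the log2 scale. The part of such overlaps in the values was not tested.

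Of the carriers of di- and tricarboxylates, oxo acids and of aspartate and glutamate, 9 of 10 listed genes had a value. In old muscles 3 of 7 tested were lower, beside 7.94% of all genes tested. The median log2 fold change of the 7 was -0.46. All 7 had a fold change below 0, beside 5199 of the 10266 genes tested. The 7 include Slc25a35, whose substrate is not settled and whose log2 fold change was -0.60 (SE 0.89). Slc25a12 and Slc25a11 are the carriers of the malate-aspartate shuttle. Slc25a12 had 220 and 216 scaled FPKM in Old 1 and Old 2, and 294 and 307 in Young 1 and Young 2, and the ages did not overlap. The log2 fold change was -0.46 (SE 0.06, adjusted p = 0.0401, limma). Slc25a13, the other aspartate-glutamate carrier and the main form in liver, had 0.0425 to 0.272 scaled FPKM and was not tested. Slc25a12 was thus the form detected at a high level at both ages.

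Slc25a11 had 154 and 164 scaled FPKM in Old 1 and Old 2, and 241 and 232 in Young 1 and Young 2. Both old samples lay below both young samples, with a log2 fold change of -0.57 (SE 0.07, adjusted p = 0.0346, limma). Slc25a30, known as KMCP1, had 1.96 and 1.63 scaled FPKM in the old samples and 3.95 and 4.42 in the young samples. Its log2 fold change was -0.89 (SE 0.10, adjusted p = 0.0315, limma). On the scale used, which adds 1 to each value, the change of genes at such low levels is understated, and the ratio of mean scaled FPKM was 2.33 in favour of young muscles. The citrate carrier Slc25a1 had a log2 fold change of -0.35 (SE 0.27), the dicarboxylate carrier Slc25a10 of -0.29 (SE 0.19) and Slc25a34 of -0.25 (SE 0.07), and none of these passed the threshold. Slc25a10 and Slc25a34 had non-overlapping ages, with old below young, and Slc25a1 did not. Slc25a21, the oxoadipate carrier, was under 0.1 FPKM or listed at 0 in each sample.

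**Figure D3:**
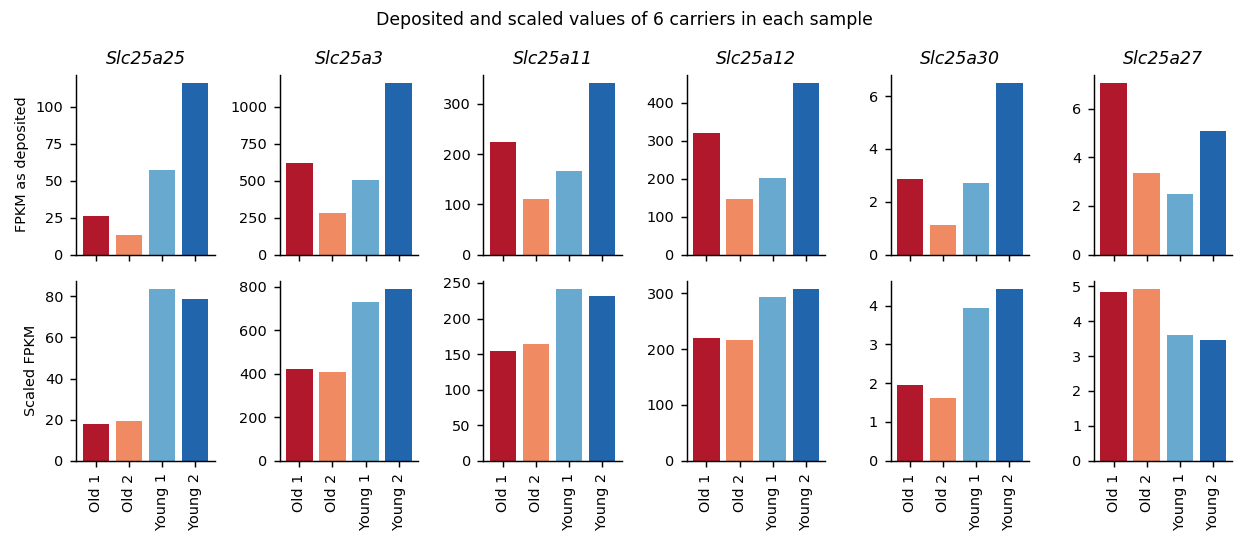
Bars show the FPKM as deposited (upper row) and the scaled FPKM (lower row) of 6 carriers in each sample, with every axis starting at 0. Before scaling, Slc25a25 alone has both old bars below both young bars, and after scaling the samples of each age lie close together in all 6 genes.

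Among the enzymes of the NADH shuttles, which work with these carriers, 2 of 5 tested genes were lower in old muscles, beside 7.94% of all genes tested. The list had 7 genes, and for all 5 with a value both old samples lay below both young samples, as in 28.4% of all genes tested, with a median log2 fold change of -0.29. Got1, the cytosolic aspartate aminotransferase, had 175 and 178 scaled FPKM in old and 331 and 335 in young muscles, a log2 fold change of -0.91 (SE 0.06, adjusted p = 0.0227, limma). Mdh2, the mitochondrial malate dehydrogenase, had 596 and 584 scaled FPKM in old and 782 and 844 in young muscles, with a log2 fold change of -0.46 (SE 0.08, adjusted p = 0.0488, limma). Mdh1, Gpd1 and Gpd2 had log2 fold changes of -0.29, -0.29 and -0.11 and did not pass the threshold. Got1, Mdh2, Slc25a11 and Slc25a12 passed it with lower values in old muscles, and are named together only because they passed. The adjusted p of Mdh2 was close to the threshold, and the count of lower shuttle enzymes changed with the setting.

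Among the amino acid, carnitine and ornithine carriers, 7 of 11 listed genes had a value. In old muscles 1 of 4 tested was lower, beside 7.94% of all genes tested. Slc25a29, a carrier of basic amino acids, had 5.50 and 5.19 scaled FPKM in Old 1 and Old 2, and 7.41 and 7.62 in Young 1 and Young 2. The log2 fold change was -0.43 (SE 0.05, adjusted p = 0.0359, limma). Slc25a44, a carrier of branched-chain amino acids, had 9.77, 10.8, 10.97 and 10.1 scaled FPKM in the same order, so the ages overlapped. The 95% interval of its log2 fold change ran from -0.27 to 0.20. Slc25a45 had 0.416 to 1.00 scaled FPKM, with higher values in Old 1 and Young 2 than in the other two samples.

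The other 3 genes of that list were not tested. Slc25a18, a glutamate carrier, and Slc25a48 had at most 0.152 FPKM. Slc25a2, an ornithine carrier, had 1.22 FPKM in Old 1 and 0.935 in Young 2 and was listed at 0 in Old 2 and Young 1. The deposited locus of Slc25a2 spans 911588 bases and encloses 43 other coding genes in the GENCODE annotation of the same build, while the gene itself spans 1369, so its value cannot be assigned to the gene. The glutamate carrier Slc25a22 is not among the 34 members, because it had a value in 1 sample per age. It had 4.45 FPKM in Old 2 and 9.26 in Young 1 as deposited, or 6.54 and 13.4 scaled FPKM, with no replicate and no test.

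Of the iron and glutathione carriers, 4 of 4 were tested and 1 was lower in old muscles, beside 7.94% of all genes tested. The median log2 fold change of the 4 was -0.17. Slc25a39, which takes glutathione into the matrix, had 23.5 and 26.1 scaled FPKM in Old 1 and Old 2, and 39.8 and 35.7 in Young 1 and Young 2. The log2 fold change was -0.59 (SE 0.10, adjusted p = 0.0471, limma), close to the threshold. Its relative Slc25a40 had 2.02, 1.60, 2.20 and 2.72 scaled FPKM in the same order. The ages did not overlap, and its log2 fold change of -0.30 (SE 0.14) did not pass the threshold.

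The iron carriers, the mitoferrins, overlapped between the ages. Slc25a28 (mitoferrin 2), the widely expressed form, had 18.6 and 20.2 scaled FPKM in Old 1 and Old 2, and 20.5 and 19 in Young 1 and Young 2. The 95% interval of its log2 fold change was -0.25 to 0.20. Slc25a37 (mitoferrin 1), the form of red cell precursors, had 7.81, 8.48, 8.65 and 8.0 scaled FPKM in the same order, with an interval of -0.24 to 0.19. The erythroid marker locus of Hba-a1 and Hba-a2, given above, was higher in old muscles (log2 fold change 2.79, adjusted p = 0.0171, limma), and its part in these values was not tested.

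Of the uncoupling-like and orphan carriers, 3 of 5 had a value and were tested. In old muscles 1 of these was higher, beside 5.61% of all genes tested. Slc25a27, a member related to the uncoupling proteins and best known from neurons, had 4.83 and 4.91 scaled FPKM in Old 1 and Old 2, and 3.60 and 3.46 in Young 1 and Young 2. Both old samples lay above both young samples, and the log2 fold change was 0.37 (SE 0.05, adjusted p = 0.0404, limma). The difference within an age was at most 0.04 on the log2 scale. Slc25a46, an outer membrane protein of mitochondrial dynamics, and Slc25a16, a carrier linked to coenzyme A, had log2 fold changes of -0.17 (SE 0.10) and -0.29 (SE 0.09). Their ages did not overlap, with old below young, and they did not pass the threshold.

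**Figure D4:**
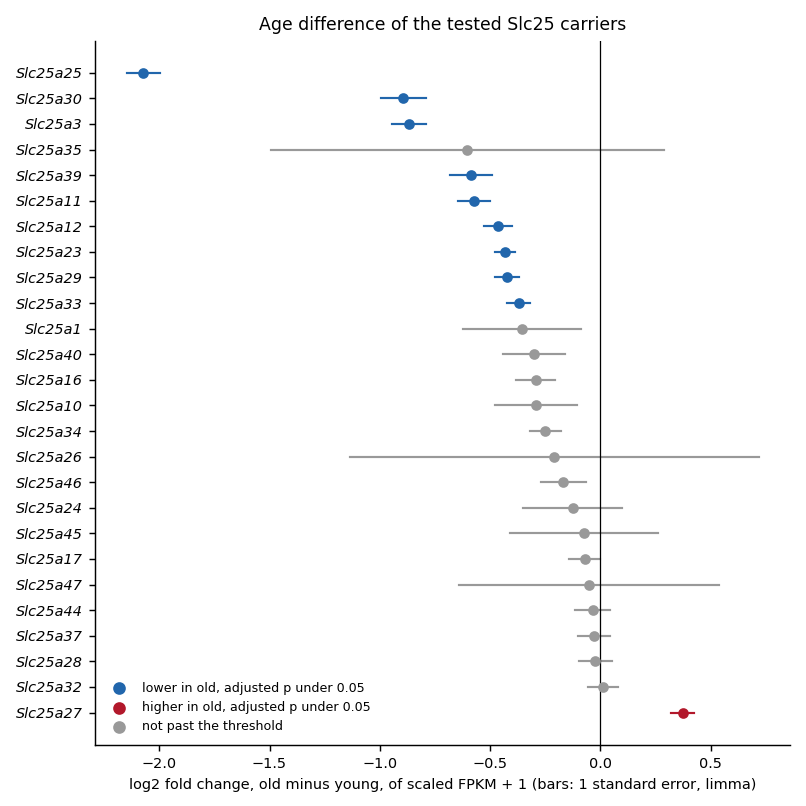
log2 fold change (x, old minus young, of scaled FPKM + 1) of 26 of the 27 tested Slc25 carriers, with bars of 1 standard error from limma. Blue marks the 9 carriers lower and red the 1 carrier higher in old muscles past the threshold, and the widest bars belong to Slc25a26, Slc25a35 and Slc25a47.

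Other transport genes of mitochondria gave 4 calls. Their list holds carrier-related genes with other symbols (Ucp2, Ucp3, Mtch1 and Mtch2), so it is not separate from the carrier family. Of 29 listed genes, 18 had a value and 17 were tested. In old muscles 3 were lower and 1 was higher, beside 7.94% lower and 5.61% higher of all genes tested. The median log2 fold change of the 17 was -0.28. Mtch1, a carrier homologue of the outer membrane, had 29.7 and 33.2 scaled FPKM in old and 60.4 and 53.8 in young muscles, a log2 fold change of -0.84 (SE 0.10, adjusted p = 0.0335, limma). Ucp2, an uncoupling protein of the carrier family, had 1.81 and 1.62 in old and 3.63 and 3.66 in young muscles, and Abcb6, an ABC transporter, had 10.02 and 11 in old and 18.2 and 16.3 in young muscles. Both were lower in old muscles (adjusted p = 0.0279 and 0.0374, limma). Sfxn2, a sideroflexin, was higher, with 3.79 and 3.70 scaled FPKM in old and 1.17 and 1.58 in young muscles.

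The muscle uncoupling protein Ucp3 had 60.1 and 65.3 scaled FPKM in old and 49.7 and 58.8 in young muscles, with no overlap and a log2 fold change of 0.21 (SE 0.12) that did not pass the threshold. The pyruvate carrier subunit Mpc1 had 374 and 403 scaled FPKM in old and 498 and 465 in young muscles (log2 fold change -0.31, SE 0.08), also short of the threshold. The porins Vdac1 and Vdac2 of the outer membrane had log2 fold changes of -0.20 and -0.39 and did not pass it. The difference in call rate between the carriers and these genes was not tested.

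The promoters of the carriers were searched for motifs of factors known to act on mitochondrial genes. RefSeq starts were given for 24 of the 34 carriers, and the full 250 bases before each of their 28 starts were searched on both strands, also where the stretch printed is shorter. AAGGTCA, the motif of the estrogen-related receptors, was found before Slc25a34 only, against 4.08% of the 32851 starts in the table. GCATGCGC, the motif of NRF1, was found before Slc25a31 only (3.57%, beside 2.26% of all starts), and AAGATGGC, that of YY1, before no carrier (1.56% of all starts). The window of Slc25a34 (chr4:141623835-141624084, GRCm38.p6, minus strand) is shown as the 1 with an estrogen-related receptor motif, in capitals on the opposite strand.
Slc25a34: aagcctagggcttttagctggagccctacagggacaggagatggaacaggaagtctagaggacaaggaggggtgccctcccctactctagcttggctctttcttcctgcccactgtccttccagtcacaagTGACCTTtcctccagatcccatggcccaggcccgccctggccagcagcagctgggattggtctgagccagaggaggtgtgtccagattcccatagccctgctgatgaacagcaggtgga
All 9 carriers that were lower in old muscles had a start in the table, and none of their 12 windows held these 3 motifs. With such low shares over all starts, 12 windows are too few for an absence to set these carriers apart. For comparison with Slc25a25, the window of Slc25a3 (chr10:91124060-91124217, minus strand, ended before an annotated exon) is shown as that of the most abundant of the 34 members.
Slc25a3: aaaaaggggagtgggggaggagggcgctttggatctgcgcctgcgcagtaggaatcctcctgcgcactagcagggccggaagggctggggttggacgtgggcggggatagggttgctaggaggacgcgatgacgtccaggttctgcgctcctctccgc
It held none of the motifs searched. The median GC content of the carrier windows was 57.4%, beside 52.4% over all starts.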

How the data were processed

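TA muscle RNA from 2 old and 2 young mouse samples was analysed, grouped by the titles in the labels. After trimming of the reads and removal of PCR duplicates, the authors aligned them to mm10 with TopHat2 2.0.10 guided by RefSeq genes, and deposited FPKM per locus. The study's methods name Cufflinks for the profile of each sample, and the submitters' processing notes name Cuffdiff 2.1.1. Which program wrote the deposited values was not settled here. The authors' FPKM values hold no counts, so no counting error is given. In each sample 1 incomplete last line was left out, and values ended on chromosome 7 or 8 in text order.

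A gene was tested where 2 or more samples reached 1 FPKM. Each sample was scaled by its median of ratios over genes with at least 1 FPKM in all 4 samples, because Cuffdiff scales libraries in a like manner. log2(scaled FPKM + 1) was fitted with limma 3.58.1 in R 4.3.3 (trend, two-sided, Benjamini-Hochberg adjustment over all genes, 3.40 total degrees of freedom per gene), after a test of the fit on simulated data. The simulated samples had independent noise and a factor common to all genes. The split of Old 1 and Young 2 from the other samples, which differed between genes, was not simulated. Python 3.11.15, pandas 2.3.3, numpy 2.4.6 and matplotlib 3.10.9 made the tables and figures. The members, role groups and marker lists were chosen with earlier results of these data known. By the rule for naming, values in every sample were given for the 10 carriers with the highest mean level, those past the threshold, up to 8 largest changes in each direction and close pairs of the family, and the remaining carriers by range or as a choice made after their values were seen. The replicate numbers were not taken as pairs. The values of 1 tested carrier are not reported here, and it is included in the counts and sums.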

Additional observations from a re-analysis of the deposited data

How the results depend on the processing

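Direction was kept by the 10 called carriers under all alternatives run, and their calls depended on the setting. The counts of all genes higher and lower in old muscles (576 and 815) were 18 and 13 without scaling, 111 and 179 with quantile normalization, 1454 and 1516 with scaling over genes with at least 10 FPKM, 1222 and 1302 where all 4 samples had to reach 1 FPKM, 114 and 202 with no filter, and 103 and 181 with no trend. The carrier counts (1 higher and 9 lower) were 0 and 0 without scaling, 0 and 1 with quantile normalization, 0 and 1 with no filter, 0 and 2 with no trend, and 0 and 4 by the untested rule of a 1.5-fold difference without overlap. The counts of other transport genes (1 and 3) were 0 and 0 without scaling, 0 and 1 with quantile normalization, 3 and 7 with scaling at 10 FPKM, 0 and 5 where all samples had to reach 1 FPKM, 0 and 0 with no filter, and 0 and 1 with no trend. The count of lower shuttle enzymes (2) was 0 without scaling and with quantile normalization, and 1 with a pseudocount of 0.1, with no filter, with no trend and for the 1.5-fold rule. The cause of these moves was not tested.

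Leaving out 1 sample in turn, with the lone sample of an age assumed to vary like the other age, gave 0 to 259 genes higher and 2 to 339 lower (184 and 303 without Old 1, 4 and 2 without Old 2, 0 and 7 without Young 1, 259 and 339 without Young 2), 0 carriers higher and 0 to 2 lower, 0 to 1 other transport genes higher and 0 to 2 lower, and 0 to 1 shuttle enzymes lower. The median log2 fold change of the carriers ranged from -0.39 to -0.19 in these fits and that of all genes from -0.10 to 0.09. Carriers short of the threshold that changed sign there had ranges of -0.58 to 0.47 for Slc25a47, -0.25 to 0.00357 for Slc25a24, -1.18 to 0.76 for Slc25a26, -0.0771 to 0.0308 for Slc25a28, -0.0368 to 0.0597 for Slc25a32, -1.48 to 0.28 for Slc25a35, -0.0812 to 0.0239 for Slc25a37, -0.0988 to 0.0306 for Slc25a44 and -0.29 to 0.14 for Slc25a45. Without scaling, Slc25a32 had a log2 fold change of -0.00186.

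With the replicate number as a block (replicate block), a pairing the samples did not follow (correlation -0.903), 24 genes were higher and 21 lower, with 0 and 0 carriers (7 at an unadjusted p under 0.05), 0 and 0 other transport genes and 0 lower shuttle enzymes. The crossed pairs as a block, added after seeing the data, gave 3242 and 3503 genes, 1 and 17 carriers, 3 and 10 other transport genes and 5 lower shuttle enzymes. FPKM values hold no depth, so how far low counts limit the low carriers is unknown.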
